A study of Mus musculus with 52 samples.

Results

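Gene expression was compared between mouse embryo-model aggregates of 2 stages, S5 after culture in a peri-implantation medium and S3 before it. The members were chosen by label: the 2 libraries of S5 and the 2 libraries of S3 grown in complete medium, 4 of the 52 libraries of the series. In the series, poly(A) RNA was sequenced from cultured mouse stem cells and from the aggregates they formed at successive numbered stages. Every S3 and S5 library was labelled with a single cell line, mc6-1/Mu-mClover3-10#, and the genotype WT. For S3, aggregates of stage S2 were kept 1 further day in a medium named 4C-64C, and the omission groups of that stage show that this medium holds 8Br-cAMP (a cell-permeable cAMP analog), Birabresib (an inhibitor of BET proteins), CHIR-99021 (a GSK3 inhibitor that activates Wnt signalling) and CD1530 (an agonist of retinoic acid receptor gamma). For S5, S4 structures of day 1 were grown for 3 days in Aggrewell microwell plates in a peri-implantation medium that holds Activin A, BMP4, FGF4 and XAV 939, a tankyrase inhibitor that lowers Wnt signalling. S4 libraries were not analysed here, so S5 minus S3 spans 2 steps of the protocol, and stage, medium and time cannot be told apart. A further 8 S3 libraries and 8 S5 libraries, 2 for each agent left out of the medium, covered these stages in other samples. The agents left out differed between the 2 stages. The p-values rest on a spread within groups that was estimated for each gene over all 52 libraries in 26 groups. The spread differed between groups, so the shared estimate may understate that of S5. No label says whether a group's 2 libraries were grown as separate cultures, so this spread may be technical.

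Around implantation the mouse embryo holds 3 lineages. The epiblast leaves naive pluripotency for a formative state in which Otx2, Fgf5 and the de novo DNA methyltransferases are switched on, the primitive endoderm becomes visceral endoderm, an absorptive epithelium that makes serum proteins and patterns the epiblast, and the trophectoderm gives extraembryonic ectoderm and giant cells. Nodal, BMP4 and FGF4 pass between these tissues, and Wnt signalling and the primitive streak follow at the posterior side.

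The 4 libraries held 42.9 to 47.4 M counts (M, mega), and 25056 of 55291 genes had enough counts to be tested. Levels are given as CPM, the counts of a gene per M counts of its library after TMM scaling, library 1 before library 2, and log2 fold changes are S5 minus S3 with their standard error (SE). CPM are not divided by gene length, so levels are compared between samples and not between genes. A gene was said to rise or fall at a Benjamini-Hochberg adjusted p below 0.05 from the quasi-likelihood F test of edgeR together with a log2 fold change of 1 or more in either direction. By that rule 3535 genes rose (14.1%) and 2129 fell (8.5%), 5664 in all (22.6%), and the median log2 fold change of all tested genes was 0.0019. In the omission media 4430 genes rose (17.7%) and 1752 fell (6.99%), 24.7% in all, with a median of 0.067. The counts and medians of the 33 gene lists described here are read against these values. In bulk RNA, fewer cells of a type and less RNA per cell cannot be told apart.

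**Figure D1:**
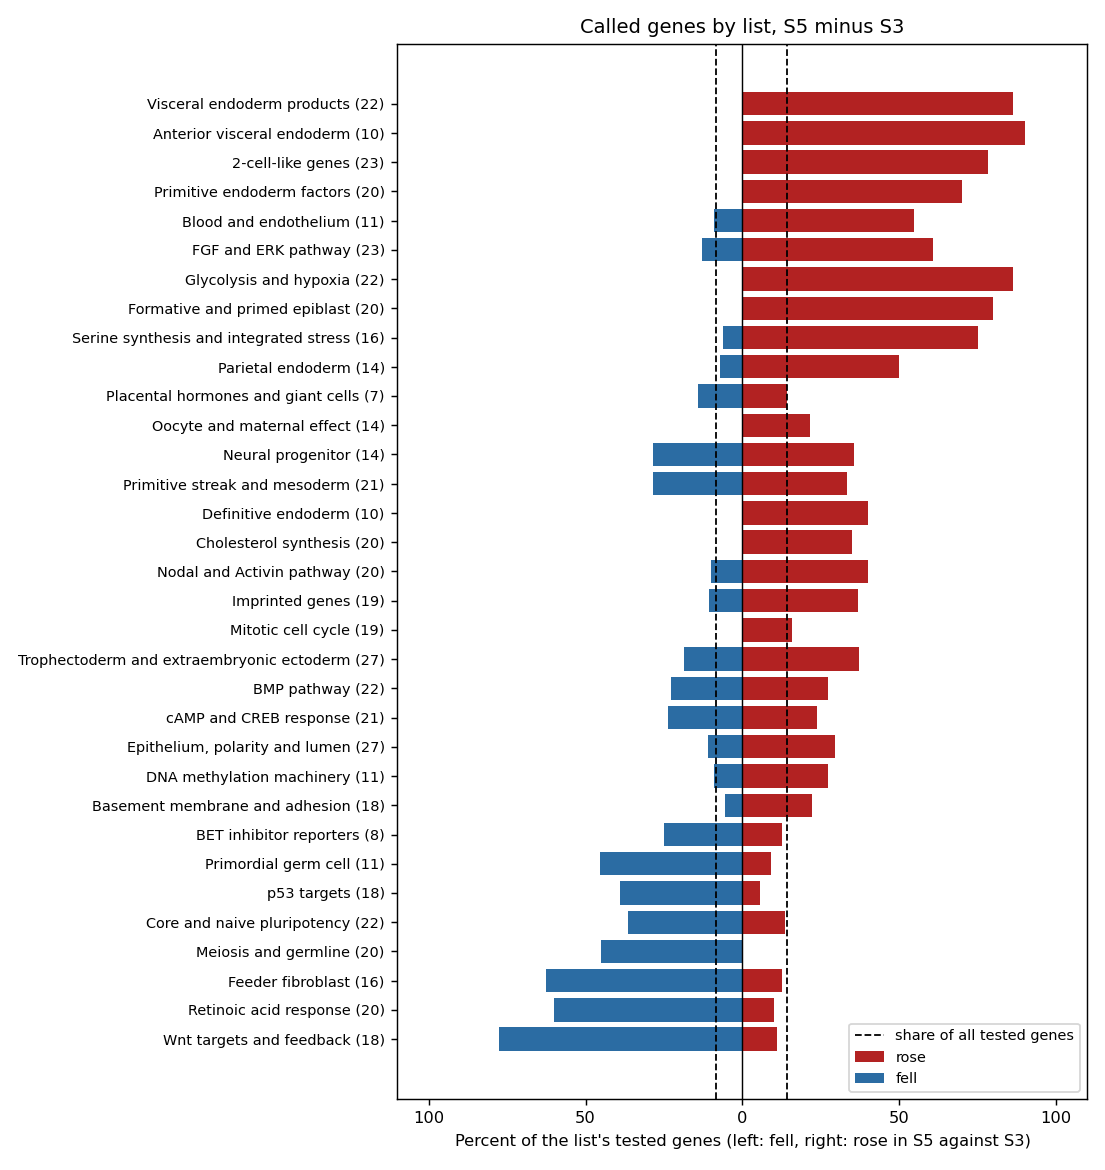
Share of each gene list that rose (red bars, to the right) or fell (blue bars, to the left) in S5 against S3, in percent of its tested genes, for 33 lists sorted by median log2 fold change. The dashed lines mark 14.1% and 8.5%, the shares of all tested genes, and the number tested is in parentheses; 2-cell-like genes, visceral endoderm and glycolysis stand on the right and Wnt targets, retinoic acid response and feeder fibroblast genes on the left.

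The visceral endoderm products made up the list with the highest median. Of 22 tested genes 19 rose and none fell, and the median log2 fold change was 5.92, or 5.82 with the 4 genes that had no count in S3 set at their lower bound. Afp, the fetal counterpart of albumin (alpha-fetoprotein, chr5:90490737-90508907, plus strand, GRCm38), had no count in either S3 library and stood at 49.4 and 95.8 CPM in the S5 libraries. Measured against a floor of 3 counts over both S3 libraries, Afp was at least 2130-fold higher in S5. Low counts in these libraries were mostly even, so the mates of a pair may have been counted separately. In that case 3 counts are fewer than 3 fragments, and this bound and those of the other genes at 0 in S3 are too high. The groups did not overlap, and S5 library 2 was the higher one. Apoa1, an apolipoprotein of high-density lipoprotein (chr9:46228580-46230466), went from 0.139 and 0 CPM to 63.4 and 127 CPM (log2 fold change 10.38, SE 0.56, edgeR adjusted p = 1.1e-16). Ttr, the thyroxine carrier transthyretin, went from 0.0928 and 0 CPM to 49.2 and 71.3 CPM (log2 fold change 10.28, SE 0.48). Both carriers were thus close to 0 in S3 and well above it in each S5 library. Apob, the structural protein of low-density lipoprotein, rose from 0.371 and 0.737 CPM to 306 and 497 CPM (log2 fold change 9.49, SE 0.44). Soat2, which esterifies cholesterol, and Mttp, which loads lipid onto Apob, rose by log2 fold changes of 9.37 and 3.71. Rbp4, the plasma retinol carrier, rose from 0.464 and 0.402 to 18.2 and 30.5 CPM.

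The endocytic receptors of the absorptive surface rose as well. Cubilin (Cubn, chr2:13276338-13491813, minus strand) went from 10.9 and 13.8 CPM to 1160 and 1750 CPM (log2 fold change 6.88, SE 0.32, edgeR adjusted p = 1.8e-19). Its membrane anchor amnionless (Amn) went from 2.64 and 3.08 CPM to 150 and 222 CPM (log2 fold change 6.02, SE 0.24). Megalin (Lrp2) went from 40.4 and 46.9 CPM to 1950 and 3010 CPM (log2 fold change 5.83, SE 0.22). Receptor, anchor and partner thus rose together, and Dab2, the adaptor of these receptors, rose from 24.8 and 26.2 CPM to 621 and 815 CPM. The 3 genes of the list that did not pass were Apoe (1280 and 1200 CPM in S3, 1030 and 1540 CPM in S5), Ihh, a hedgehog ligand (8.81 and 6.97 CPM, then 10.6 and 14.6 CPM), and Fxyd3, which stayed under 0.14 CPM. Apoe is made by many cell types, and its log2 fold change of 0.04 (SE 0.19) had S5 values on both sides of those of S3.

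Among the transcription factors and early markers of primitive endoderm 14 of 20 tested genes rose and none fell (median log2 fold change 2.72). Gata4, a zinc-finger factor of endoderm, went from 15 and 14.3 CPM to 192 and 272 CPM (log2 fold change 3.98, SE 0.17, edgeR adjusted p = 9.6e-21). Hnf4a, the nuclear receptor of visceral endoderm, went from 1.58 and 1.16 CPM to 71.4 and 103 CPM (log2 fold change 6, SE 0.31). Foxa2 rose from 5.98 and 5.85 CPM to 34.7 and 46.9 CPM, and Sox7 from 11.7 and 8.84 CPM to 58.6 and 74.6 CPM. Gata6, which acts earliest in this lineage, was already at 41.7 and 45.9 CPM in S3 and rose to 105 and 135 CPM (log2 fold change 1.46, SE 0.13). In the omission media Gata6 did not pass (log2 fold change 0.77), and the difference between media was not tested. Sox17 was at 24.3 and 22.6 CPM in S3 and at 23 and 29.1 CPM in S5 (log2 fold change 0.15, SE 0.16, edgeR adjusted p = 0.49). Gata6 and Sox17 were therefore measured in S3 already, while Hnf4a was close to 0 there. Pdgfra, an early receptor of the lineage, stood at 41.3 and 41.8 CPM in S3 and at 82.9 and 79.8 CPM in S5, just under the threshold (log2 fold change 0.97), which it reached without S5 library 2 (1).

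The anterior visceral endoderm secretes inhibitors that mark the future head side. Of its 10 listed genes 9 rose and none fell (median log2 fold change 4.07). Cer1, an inhibitor of Nodal and BMP (chr4:82881751-82885148, minus strand), had no count in S3 and stood at 21.7 and 33.4 CPM in S5, at least 806-fold higher. Lefty1, an inhibitor of Nodal (chr1:180935022-180938400), went from 3.2 and 2.75 CPM to 354 and 546 CPM (log2 fold change 7.24, SE 0.22, edgeR adjusted p = 6.1e-25). The Wnt inhibitor Dkk1 went from 4.96 and 6.43 CPM to 45.5 and 61.2 CPM (log2 fold change 3.22, SE 0.23). All 3 secreted inhibitors were higher in both S5 libraries than in either S3 library. Lhx1, a factor of this tissue, went from 0.904 and 0.558 CPM to 100 and 147 CPM (log2 fold change 7.4, SE 0.34). Hhex, the remaining gene, stood at 4.87 and 3.48 CPM in S3 and at 6.23 and 8.23 CPM in S5 (log2 fold change 0.79, SE 0.25), and passed without S3 library 1 (1.05).

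Parietal endoderm, the other derivative of primitive endoderm, migrates and lays down a thick basement membrane. Of 14 listed genes 7 rose and 1 fell (median log2 fold change 1.13). The collagen IV genes Col4a1 (172 and 174 CPM, then 1080 and 1320 CPM) and Col4a2 (96.8 and 94.5 CPM, then 574 and 709 CPM) and the matrix protein Sparc (311 and 315 CPM, then 984 and 1050 CPM) rose. Pth1r, the receptor for parathyroid hormone-related protein, rose by a log2 fold change of 3.03 (SE 0.21). Thbd, Snai1 and the laminin gene Lamb1 were the other genes of the list that rose. The collagen IV genes and Sparc are also made by visceral endoderm. The tissue plasminogen activator Plat, by contrast, was at 7.95 and 8.11 CPM in S3 and at 7.27 and 8.07 CPM in S5. Stra6, a retinol transporter, fell from 30.8 and 30.4 CPM to 4.53 and 4.47 CPM.

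The 2 S5 libraries differed in the amount of these transcripts. S5 library 2 was above S5 library 1 in 20 of 20 visceral endoderm products over 1 CPM, with a median log2 difference of 0.58, and in 10 of 10 anterior visceral endoderm genes (median 0.52), against 52.8% of 15221 genes and a median of 0.016 over all tested genes above 1 CPM. Primitive endoderm factors were higher in library 2 for 17 of 20 genes (median 0.34). The summed level of the visceral endoderm products was 1510 and 1420 CPM in S3 and 5390 and 8230 CPM in S5. The trophectoderm and extraembryonic ectoderm list leaned the other way, with 7 of 27 genes higher in library 2 and a median of -0.38. These sums include Apoe, whose S5 libraries lie on both sides of those of S3. What made the S5 libraries differ was not tested.

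**Figure D2:**
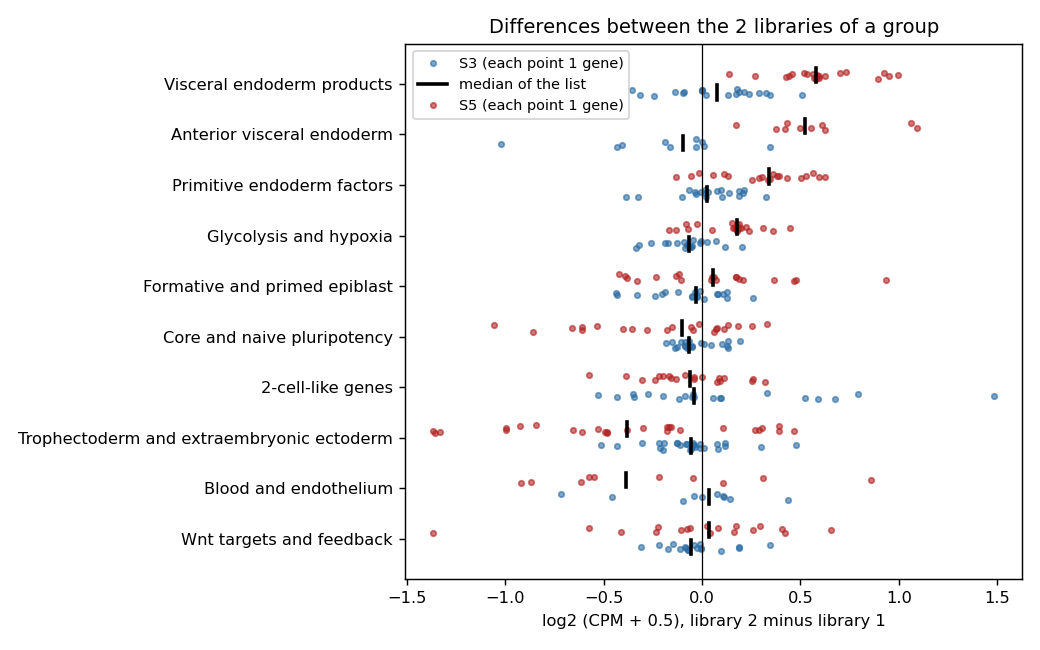
Log2 difference between library 2 and library 1 of the same group, from log2(CPM + 0.5), for each gene of 10 lists, S3 in blue and S5 in red with the median as a black bar. The S3 medians stay close to 0, while in S5 the visceral endoderm products (median 0.58) and anterior visceral endoderm genes (0.52) lie above 0 and the trophectoderm and extraembryonic ectoderm genes (-0.38) below it.

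Of 22 core and naive pluripotency genes 8 fell, 3 rose and 11 did not pass (median log2 fold change -0.87). Among those that did not pass were Klf2, Klf5, Nr0b1 and Dppa5a, with log2 fold changes of -0.88, -0.86, -0.88 and -0.8. Klf5 passed without S5 library 2 (-1.03) and Nr0b1 without S5 library 1 (-1.01). Tfcp2l1, a factor of the naive network, fell from 912 and 995 CPM to 128 and 124 CPM (log2 fold change -2.92, SE 0.16, edgeR adjusted p = 1.8e-17). Nr5a2, an orphan nuclear receptor that activates Pou5f1 in naive cells, fell from 56.2 and 64.4 CPM to 6.65 and 2.94 CPM (log2 fold change -3.65, SE 0.19). Nanog fell from 428 and 392 CPM to 136 and 143 CPM (log2 fold change -1.56, SE 0.11). In each of these 3 genes both S5 libraries lay well below both S3 libraries. Esrrb, Prdm14, Zfp42, Klf4 and Tbx3 fell by log2 fold changes of -2.06, -2.95, -1.55, -1.37 and -1.92. Pou5f1 stood at 252 and 241 CPM in S3 and at 291 and 262 CPM in S5 (log2 fold change 0.17, SE 0.14, edgeR adjusted p = 0.34). Sox2 stood at 270 and 258 CPM, then at 159 and 124 CPM (log2 fold change -0.9, SE 0.09), which missed the fold threshold. Without S5 library 1 Sox2 passed it, with a log2 fold change of -1.08 (edgeR adjusted p = 1.3e-09). The 3 genes of the list that rose are shared with the later epiblast: the Nodal co-receptor Tdgf1 (21.5 and 19.3 CPM, then 827 and 796 CPM, log2 fold change 5.32, SE 0.18), Fgf4 (27.2 and 29.9 CPM, then 177 and 122 CPM) and the RNA-binding protein Lin28a (87.3 and 82.1 CPM, then 420 and 476 CPM).

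Formative and primed epiblast genes rose as a group, 16 of 20 tested with none fallen and a median log2 fold change of 1.89. Fgf5, the classic marker of the post-implantation epiblast (chr5:98254184-98277030, plus strand), went from 0.186 and 0.0447 CPM to 65.5 and 74 CPM (log2 fold change 9.22, SE 0.37, edgeR adjusted p = 2.5e-21). The POU factor Pou3f1 went from 0.51 and 0.357 CPM to 116 and 92.1 CPM (log2 fold change 7.9, SE 0.37). Otx2, the factor that opens formative enhancers, went from 6.89 and 6.95 CPM to 118 and 133 CPM (log2 fold change 4.18, SE 0.15), and is also an anterior visceral endoderm gene. The S5 libraries were close to each other in all 3, unlike in the visceral endoderm genes. Utf1, a chromatin factor of the epiblast, rose from 15.2 and 11.1 CPM to 425 and 387 CPM. Sox3, Sall2 and Grhl2 rose by log2 fold changes of 3.11, 2.28 and 2.12. The 4 that did not pass were Fgf8 (14.9 and 10.9 CPM, then 14.1 and 27.4 CPM, log2 fold change 0.69, or 1.1 and past the threshold without S5 library 1), Sox4, Cdh2 and Etv4. Foxd3 had too few counts to be tested.

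Of the DNA methylation genes 3 of 11 rose and 1 fell (median log2 fold change 0.21), and the rises were the de novo enzymes and their cofactor. Dnmt3b, a de novo methyltransferase, went from 107 and 105 CPM to 864 and 895 CPM (log2 fold change 3.05, SE 0.09, edgeR adjusted p = 6.8e-26). Dnmt3l, its cofactor, went from 11.4 and 11.4 CPM to 341 and 311 CPM (log2 fold change 4.84, SE 0.16). Dnmt3a rose from 107 and 117 CPM to 536 and 408 CPM. All 3 were higher in both S5 libraries. The maintenance genes did not pass: Dnmt1 was at 480 and 486 CPM and then at 363 and 338 CPM, and Uhrf1 at 410 and 410 CPM and then at 413 and 414 CPM. Zfp57, which protects methylation at imprinted regions, fell from 544 and 532 CPM to 204 and 167 CPM (log2 fold change -1.54, SE 0.08).

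**Figure D3:**
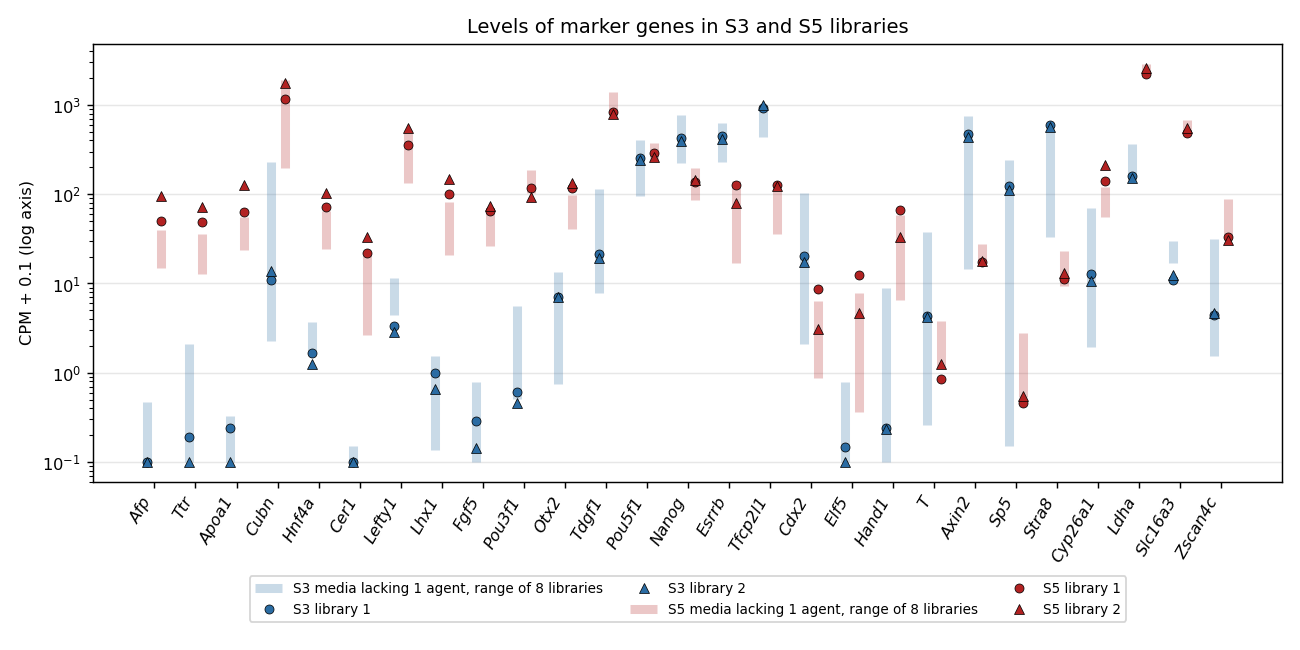
CPM + 0.1 on a log axis for 27 genes, with S3 in blue and S5 in red, a circle for library 1 and a triangle for library 2, and pale bars for the range of the 8 omission libraries of each stage. The symbols of Afp, Cer1 and Fgf5 lie under 1 in S3 and above 10 in S5, and those of Axin2, Sp5 and Stra8 lie high in S3 and low in S5. The pale bars overlap between stages for several genes, among them Pou5f1, Axin2, Sp5, Cdx2, Elf5, Hand1, T, Cyp26a1 and Cubn. That of Cer1 in S5 starts at 2.52 CPM.

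Trophectoderm and extraembryonic ectoderm genes went both ways, 10 of 27 up and 5 down with a median log2 fold change of 0.44. Cdx2, the founding factor of trophectoderm, fell from 20 and 17.1 CPM to 8.49 and 2.99 CPM (log2 fold change -1.69, SE 0.3, edgeR adjusted p = 1.5e-05). Elf5, a factor of extraembryonic ectoderm, had 1 library with counts in S3 (0.0464 CPM) and stood at 12.4 and 4.54 CPM in S5, a ratio of 375 with a 95% counting interval from 103 to 3100. Hand1, a factor of giant cells and of extraembryonic mesoderm, went from 0.139 and 0.134 CPM to 66.2 and 32.9 CPM (log2 fold change 8.47, SE 0.46). Cdx2, Elf5 and Hand1 were all lower in S5 library 2 than in library 1. Eomes, shared by trophoblast, anterior visceral endoderm and streak, rose from 19.3 and 17.6 CPM to 67.9 and 89.1 CPM (log2 fold change 2.09, SE 0.17). Gata3 rose from 2.76 and 4.04 CPM to 10.8 and 15.1 CPM (log2 fold change 1.92, SE 0.23). Esx1, Gata2, Sox21 and the ligand gene Wnt6 fell by log2 fold changes of -1.04, -1.21, -1.97 and -2.46. Without S5 library 2 the list had 12 risen and 3 fallen genes, with Esx1 at -0.79 and Gata2 at -0.9, and Esx1 also missed the fold threshold without S3 library 1 (-0.99). In the omission media the counts were 6 risen and 9 fallen (median -0.18), and Gata3 had a log2 fold change of -0.18 there. The difference between media was not tested.

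Hormones of trophoblast giant cells and the labyrinth were near or at 0. Of 13 listed genes 4 were at 0 in all 4 libraries (Prl4a1, Psg18, Ctsq and Synb), and 7 could be tested. Prl3d1, placental lactogen I, had no count in S3 and 0.0884 and 0.0456 CPM in S5, and Tpbpa, a spongiotrophoblast gene, had 0.133 and 0 CPM in S5. Neither level stands clear of a few counts. Plac1 rose from 1.62 and 0.983 CPM to 7.65 and 2.74 CPM, and the labyrinth factor Gcm1 fell from 2.9 and 3.24 CPM to 1.5 and 0.684 CPM.

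Primitive streak and mesoderm genes went both ways, with 7 of 21 up and 6 down (median log2 fold change 0.92), and 3 of the falls (T, Sp5 and Cdx1) are also in the list of Wnt targets. Brachyury (T), the defining gene of the streak, fell from 4.17 and 4.15 CPM to 0.751 and 1.16 CPM (log2 fold change -2.12, SE 0.27, edgeR adjusted p = 2.7e-08). Evx1, a homeobox gene of the posterior streak, fell from 17.6 and 11.8 CPM to 0.906 and 0.935 CPM (log2 fold change -3.99, SE 0.36). The caudal gene Nkx1-2 fell from 14.5 and 15.9 CPM to 0.575 and 0.456 CPM. In these 3 genes S3 was the higher stage in every library of the complete media. In the omission media T also fell (log2 fold change -1.21), but its libraries overlapped between the stages. Its means were 0.185 CPM at S3 without CHIR-99021 and 3.49 CPM at S5 without FGF4. Mixl1, a streak homeobox gene, rose from 2.04 and 2.17 CPM to 3.38 and 5.52 CPM (log2 fold change 1.08, SE 0.3, edgeR adjusted p = 0.0034), and without S5 library 2 it missed the fold threshold (0.69). In the omission media Mixl1 did not pass (log2 fold change -0.02), and the difference between media was not tested. Mesp1, which marks early mesoderm, was under 0.1 CPM in all 4 libraries. Of the definitive endoderm list 4 of 10 rose (Foxa2, Cer1, Gsc and Trh), and the first 3 of these are also anterior visceral endoderm genes. Gsc went from 0.557 and 0.536 CPM to 5.35 and 11.7 CPM.

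Neural genes were also split, with 5 of 14 up and 4 down (median log2 fold change 1.07). Sox1, the earliest neural Sox gene, rose from 2.46 and 1.56 CPM to 11.8 and 19.4 CPM (log2 fold change 2.95, SE 0.27, edgeR adjusted p = 1.4e-10). Olig2 rose from 0.255 and 0.625 CPM to 8.02 and 8.1 CPM, and Zic1 fell from 9.62 and 8.22 CPM to 0.243 and 0.274 CPM. The 4 falls became 1 without S3 library 1 and 2 without S5 library 2. Germ cell genes gave 1 rise and 5 falls of 11 (median -0.43), and the 5 falls became 3 without S3 library 1 or S5 library 1, with the 20 S3 and S5 libraries alone and with the replicate block. Dazl, an RNA-binding protein of germ cells, fell from 98.3 and 99.6 CPM to 20.6 and 25.2 CPM (log2 fold change -2.11, SE 0.17), Prdm1 rose from 4.5 and 3.66 CPM to 10.9 and 14.3 CPM (log2 fold change 1.63, SE 0.2), and Dppa3 (Stella) stayed at 6.24 and 6.45 CPM and then 6.14 and 6.07 CPM. Of the blood and endothelium list 6 of 11 rose and 1 fell. Gata1, the erythroid factor, went from 0.464 and 0.402 CPM to 6.61 and 12.4 CPM (log2 fold change 4.45, SE 0.46), and Runx1, a factor of blood stem cells, from 8.88 and 8.62 CPM to 38.7 and 48 CPM (log2 fold change 2.31, SE 0.2). The globins Hba-x, Hbb-y, Hbb-bh1 and Hba-a1 were at 0.265 CPM or less in every one of the 4 libraries.

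Markers of fibroblasts, a cell type used as feeder layer in stem cell culture, were mostly lower in S5. Of 16 genes 10 fell and 2 rose (median log2 fold change -1.65), and their summed level was 200 and 217 CPM in S3 and 75.6 and 78.1 CPM in S5. Collagen I genes Col1a1 (67 and 74.6 CPM, then 23.6 and 21.4 CPM) and Col1a2 (44.3 and 48.2 CPM, then 3.89 and 5.79 CPM) and Postn (16.7 and 16.8 CPM, then 0.972 and 1.6 CPM) were lower in both S5 libraries. S100a4 was at 0 in all 4 libraries. The 2 rises were Thy1 (1.25 and 0.938 CPM, then 9.7 and 9.37 CPM) and Fap, which had at most 0.133 CPM and whose call was lost without any one of the 4 libraries. The part of these cells in other falls was not tested.

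Genes of the epithelium and its lumen mostly did not pass, with 8 of 27 up and 3 down (median log2 fold change 0.24). Podocalyxin (Podxl), a charged protein that lines opening lumens, rose from 25.6 and 25.8 CPM to 506 and 623 CPM (log2 fold change 4.46, SE 0.14, edgeR adjusted p = 1.9e-24). The water channel Aqp8 rose from 14.2 and 11.8 CPM to 86.6 and 127 CPM (log2 fold change 3.04, SE 0.3), while Aqp3 fell from 312 and 294 CPM to 13.3 and 27.4 CPM (log2 fold change -3.9, SE 0.21). The water channel genes thus went in opposite directions. E-cadherin (Cdh1) was at 683 and 664 CPM in S3 and at 597 and 593 CPM in S5, and the junction gene Tjp1 at 285 and 298 CPM and then at 323 and 332 CPM. In the basement membrane list 4 of 18 rose and 1 fell (median 0.16), or 2 fell without S5 library 1. Fibronectin (Fn1) was the fallen one, from 2910 and 3040 CPM to 857 and 768 CPM (log2 fold change -1.87, SE 0.19), while the laminin genes Lama1 and Lamc1 did not pass (log2 fold changes 0.91 and 0.2), except Lama1 without S3 library 2 (1.01).

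The Nodal pathway had 8 of 20 genes up and 2 down (median log2 fold change 0.67). The ligand Nodal itself was at 62.8 and 52.5 CPM in S3 and at 62.3 and 93 CPM in S5 (log2 fold change 0.43, SE 0.13). Its feedback inhibitor Lefty2 rose from 7.1 and 7.03 CPM to 259 and 332 CPM (log2 fold change 5.39, SE 0.15, edgeR adjusted p = 8.4e-26), beside Lefty1. Foxh1, the DNA-binding partner of the Smads, rose from 6.35 and 5.92 CPM to 49 and 59.7 CPM. The co-receptors Tdgf1 and Cfc1 both rose, the latter from no count to 1.37 and 1.98 CPM. The receptors Acvr1b, Acvr2a and Acvr2b and the effectors Smad2 and Smad3 did not pass. Pcsk6, a convertase that processes Nodal, fell from 122 and 119 CPM to 30.4 and 22.8 CPM.

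The BMP pathway had 6 of 22 up and 5 down (median log2 fold change 0.43). The ligand genes Bmp2 (3.78 and 2.26 CPM, then 14.9 and 22.2 CPM) and Bmp8b (0.928 and 1.27 CPM, then 12.2 and 6.7 CPM) rose. Bmp4 rose from 6.49 and 6.23 CPM to 14 and 17.4 CPM (log2 fold change 1.3, SE 0.18, edgeR adjusted p = 1.3e-07), and Bmp7 fell from 45.5 and 41.5 CPM to 8.18 and 9.74 CPM. In the omission media Bmp4 did not pass (log2 fold change 0.05), and its mean at S3 without CD1530 was 50.1 CPM. The difference between media was not tested. The inhibitor Noggin (Nog) rose from 0.325 and 0.156 CPM to 5.15 and 10.8 CPM. The direct targets did not move alike: Id1 was at 36.3 and 37 CPM and then at 32.2 and 46.2 CPM, Id2 rose from 10.5 and 7.66 CPM to 32.9 and 40.3 CPM, and Id3 fell from 63.4 and 58 CPM to 21.4 and 24.7 CPM. The receptor Bmpr1a was at 129 and 126 CPM, then at 126 and 130 CPM.

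The FGF and ERK pathway had 14 of 23 up and 3 down (median log2 fold change 2.21). The ligands Fgf3, Fgf4, Fgf5, Fgf10 and Fgf15 rose. Fgf10 went from 0.51 and 0.67 CPM to 46.5 and 68.6 CPM (log2 fold change 6.6, SE 0.32, edgeR adjusted p = 5.3e-19), and Fgf15 from 0.0464 and 0 CPM to 19.4 and 16 CPM, a ratio of 779 with a 95% counting interval from 215 to 6440. Among the receptors Fgfr2, Fgfr3 and Fgfr4 rose (log2 fold changes 2.21, 2.82 and 3.77), and Fgfr1 was at 269 and 267 CPM and then at 142 and 132 CPM (log2 fold change -0.97), just under the threshold, which it passed without S5 library 1 (-1.01). The feedback genes Dusp4 (17.4 and 17.5 CPM, then 140 and 178 CPM), Dusp6 (27.8 and 30.3 CPM, then 132 and 113 CPM) and Spry4 (13.4 and 13.3 CPM, then 90.9 and 67 CPM) rose. Etv4 and Etv5, also targets of ERK, did not pass, and the immediate-early genes Egr1 and Fos fell (log2 fold changes -2.21 and -1.12), Fos not without S5 library 1 (-0.64).

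Of 18 targets and feedback genes of Wnt signalling 14 fell and 2 rose (median log2 fold change -2.13). Their summed level was 1570 and 1470 CPM in S3 and 326 and 312 CPM in S5. Axin2, the most general target and an inhibitor of the pathway, fell from 467 and 439 CPM to 17.3 and 17.8 CPM (log2 fold change -4.69, SE 0.18, edgeR adjusted p = 2.3e-22). Sp5, a zinc-finger repressor (chr2:70474923-70477729, plus strand), fell from 122 and 110 CPM to 0.354 and 0.456 CPM (log2 fold change -8.15, SE 0.26). The homeobox gene Cdx1 fell from 393 and 364 CPM to 2.03 and 2.53 CPM (log2 fold change -7.37, SE 0.22). S3 and S5 libraries were far apart in all 3. Notum, which inactivates Wnt ligands, fell from 120 and 114 CPM to 2.87 and 1.76 CPM (log2 fold change -5.66, SE 0.21), and 38.1% of its exonic bases lie in exons of other annotated genes. Apcdd1, Nkd1, Rnf43 and Znrf3 fell by log2 fold changes of -3.26, -2.99, -2.89 and -1.48. The 2 rises were Lef1 (15.7 and 15.6 CPM, then 53.9 and 45.8 CPM), also an epiblast gene, and Dkk1. At S3 without CHIR-99021 the means were lower, 14.9 CPM for Axin2, 0.265 CPM for Sp5 and 19.6 CPM for Cdx1. Without 8Br-cAMP the means at S3 were higher, 747, 229 and 734 CPM. At S5 the means of Axin2, Sp5 and Cdx1 were 24.2, 1.02 and 5.48 CPM without XAV 939 and 21.8, 2.47 and 0.992 CPM without FGF4. These differences between media were not tested.

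The promoter of Sp5 is shown as that of the target with the largest fall in the list. It is the window of 250 bases before the RefSeq start on GRCm38.p6, chr2:70474673-70474922, plus strand, 5′ to 3′, and the capitals mark CTTTGAT, the letters read by TCF and LEF factors.

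Sp5: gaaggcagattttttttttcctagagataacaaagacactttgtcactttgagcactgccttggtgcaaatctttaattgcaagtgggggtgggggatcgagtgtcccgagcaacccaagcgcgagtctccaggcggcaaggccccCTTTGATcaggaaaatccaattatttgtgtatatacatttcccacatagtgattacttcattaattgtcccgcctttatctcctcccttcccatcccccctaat

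CTTTGAT on either strand was found in the window of Sp5 alone among the 10 Wnt genes with a RefSeq entry, and in 3.21% of all windows.

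Of 20 genes of the retinoic acid response 12 fell and 2 rose (median log2 fold change -1.7). Stra8, a gene induced by retinoic acid before meiosis (chr6:34920163-34939344, plus strand), fell from 591 and 565 CPM to 11.2 and 13 CPM (log2 fold change -5.58, SE 0.15, edgeR adjusted p = 2.9e-26). The homeobox gene Meis2 fell from 36.9 and 30.9 CPM to 8.09 and 9.87 CPM. The Hox genes Hoxa3, Hoxb1 and Hoxb4 fell as well. Cyp26a1, the enzyme that degrades retinoic acid (chr19:37697798-37701536, plus strand), went the other way, from 12.6 and 10.5 CPM to 139 and 211 CPM (log2 fold change 3.92, SE 0.22). Cyp26b1, a related enzyme, fell from 10.2 and 9 CPM to 1.15 and 1.41 CPM. Cyp26c1 was the other rise, from 0.835 and 1.18 CPM to 1.97 and 3.35 CPM, and its call was lost without S3 library 1 (log2 fold change 1.17, edgeR adjusted p = 0.053) or S5 library 2 (0.96). At S3 without CD1530 the mean of Stra8 was lower, at 33.4 CPM. The mean of Cyp26a1 was 1.92 CPM at S3 without CD1530 and 68.8 CPM at S3 without CHIR-99021. These differences between media were not tested.

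Cyp26a1 is shown because its promoter holds a retinoic acid element and its level rose while 12 genes of the list fell. The window is chr19:37697558-37697807, plus strand, on GRCm38.p6, 5′ to 3′, and the capitals mark the match, read on the opposite strand, to the DR5 retinoic acid element, a direct repeat of receptor half-sites that was searched on both strands.

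Cyp26a1: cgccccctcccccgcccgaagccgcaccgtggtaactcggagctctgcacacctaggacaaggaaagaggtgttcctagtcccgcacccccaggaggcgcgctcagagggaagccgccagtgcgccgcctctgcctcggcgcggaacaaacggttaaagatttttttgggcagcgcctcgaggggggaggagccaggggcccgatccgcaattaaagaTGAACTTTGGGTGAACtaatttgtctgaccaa

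The DR5 element was found in the windows of Cyp26a1 and Rarb, 2 of 15 listed genes with a RefSeq entry, and in 0.776% of all windows. Rarb, a retinoic acid receptor, stood at 3.73 and 4.38 CPM in S3 and at 2.12 and 2.69 CPM in S5 (log2 fold change -0.75, SE 0.29).

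Genes that respond to cAMP gave 5 rises and 5 falls of 21 (median log2 fold change 0.42), and the falls became 2 without S5 library 1. Fosb fell from 9.6 and 10.7 CPM to 0.994 and 0.639 CPM and the orphan receptor gene Nr4a1 from 63.7 and 61.9 CPM to 18.2 and 17.4 CPM, while Per1 rose from 15.4 and 17.4 CPM to 41.6 and 55.6 CPM. Among 8 tested genes that report BET inhibition 2 fell (Hexim1 and Sertad1) and 1 rose (Myc). Hexim1 went from 164 and 148 CPM to 73.8 and 76.7 CPM (log2 fold change -1.05). The 2 falls became 1 without S3 library 1 (Hexim1 at -0.98), and without S3 library 2 or S5 library 1 (Sertad1 at -0.92 and -0.99).

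Imprinted genes gave 7 rises and 2 falls of 19 (median log2 fold change 0.64). Plagl1, a zinc-finger gene, fell from 338 and 349 CPM to 15.1 and 12.5 CPM (log2 fold change -4.63, SE 0.13, edgeR adjusted p = 5.1e-26), while Grb10, an adaptor that restrains growth signalling, rose from 10.6 and 11.1 CPM to 172 and 203 CPM (log2 fold change 4.11, SE 0.14). The noncoding RNA H19 rose from 71.2 and 58 CPM to 565 and 457 CPM (log2 fold change 2.98, SE 0.25). Igf2 rose from 7.77 and 9.65 CPM to 63.7 and 33.6 CPM, with 64.5% of its exonic bases in exons of other annotated genes. Meiosis genes gave 9 falls and no rise of 20 (median -0.89). Beside Stra8, the cohesin subunit Rec8 fell from 281 and 295 CPM to 24.5 and 29.6 CPM (log2 fold change -3.42, SE 0.11) and Taf7l from 94.8 and 98.5 CPM to 16.5 and 13.9 CPM (log2 fold change -2.67, SE 0.14). Sycp1, of the synaptonemal complex, and Dmc1, a recombinase, did not pass.

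Glycolysis and hypoxia genes rose almost throughout, 19 of 22 with none fallen and a median log2 fold change of 2.19. Their summed level was 10500 and 10000 CPM in S3 and 30400 and 34900 CPM in S5. Lactate dehydrogenase A (Ldha, chr7:46841475-46855627, plus strand) went from 161 and 151 CPM to 2230 and 2560 CPM (log2 fold change 3.94, SE 0.14, edgeR adjusted p = 3.9e-23). Slc16a3, the lactate exporter of glycolytic cells (chr11:120948480-120960868, plus strand), went from 10.8 and 12.5 CPM to 486 and 550 CPM (log2 fold change 5.47, SE 0.32). Phosphoglycerate kinase (Pgk1, chrX:106187100-106203699, plus strand) went from 256 and 247 CPM to 2120 and 2400 CPM (log2 fold change 3.16, SE 0.12). In all 3 the ranges of the 10 S5 libraries and the 10 S3 libraries, omission media included, did not overlap. The phosphofructokinase genes Pfkl and Pfkp rose by log2 fold changes of 3.01 and 3.35, and Hk2 by 2.59. Egln3, an oxygen sensor that hypoxia induces, went from 13.6 and 12 CPM to 206 and 235 CPM (log2 fold change 4.11, SE 0.2), and Bnip3 and Vegfa rose by 3.86 and 2.82. The 3 that did not pass were the glucose transporter Slc2a3 (2790 and 2840 CPM, then 3300 and 4230 CPM), Hk1 (72.2 and 71.7 CPM, then 99.3 and 90.6 CPM) and Car9, a standard hypoxia reporter that stayed under 1 CPM. Oxygen tension is not in the labels used here.

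Promoters of 3 of these genes are shown because they rose together and hold the same letters. Each is the window of 250 bases before a RefSeq start on GRCm38.p6, plus strand, 5′ to 3′, and the capitals mark ACGTG on either strand, the core of the hypoxia response element. The windows are chr7:46845554-46845803 for Ldha, which has a second RefSeq start without a match, chr11:120948817-120949066 for Slc16a3 and chrX:106186850-106187099 for Pgk1.

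Ldha: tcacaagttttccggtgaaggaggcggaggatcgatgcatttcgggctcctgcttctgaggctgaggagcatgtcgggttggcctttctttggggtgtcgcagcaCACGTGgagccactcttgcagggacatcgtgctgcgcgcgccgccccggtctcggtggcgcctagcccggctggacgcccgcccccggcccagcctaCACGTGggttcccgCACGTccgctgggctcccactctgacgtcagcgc
Slc16a3: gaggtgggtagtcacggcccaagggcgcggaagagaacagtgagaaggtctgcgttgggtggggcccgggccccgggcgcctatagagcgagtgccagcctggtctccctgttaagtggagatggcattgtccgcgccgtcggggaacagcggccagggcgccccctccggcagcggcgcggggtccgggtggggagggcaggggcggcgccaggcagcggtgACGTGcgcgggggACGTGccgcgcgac
Pgk1: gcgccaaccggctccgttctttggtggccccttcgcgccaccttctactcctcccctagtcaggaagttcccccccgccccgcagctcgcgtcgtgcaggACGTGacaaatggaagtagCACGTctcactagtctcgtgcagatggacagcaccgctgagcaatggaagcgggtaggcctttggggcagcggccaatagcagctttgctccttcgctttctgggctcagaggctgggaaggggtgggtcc

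In Ldha the capitals CACGTG are read on both strands and are also the letters of an E-box. ACGTG was found in 13 of the 21 listed genes with a RefSeq entry (61.9%), against 22.7% of the 15049 tested genes with a window and 16.6% of all windows. The list was drawn up with earlier results of these data known, and the share is given as a description.

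Of 16 genes of serine and one-carbon metabolism and of the integrated stress response 12 rose and 1 fell (median log2 fold change 1.61). Their summed level was 2210 and 2160 CPM in S3 and 2160 and 2140 CPM in S5, with Asns the fallen gene. Psat1 went from 58 and 56.4 CPM to 337 and 308 CPM (log2 fold change 2.49, SE 0.09, edgeR adjusted p = 4.1e-23), Phgdh from 51.7 and 51.5 CPM to 255 and 296 CPM (log2 fold change 2.42, SE 0.13) and Mthfd2 from 23.4 and 21.4 CPM to 128 and 116 CPM (log2 fold change 2.45, SE 0.1). The stress genes Chac1 and Trib3 rose by 3.51 and 2.01. Asparagine synthetase (Asns), a standard target of the same response, fell from 1550 and 1510 CPM to 317 and 323 CPM (log2 fold change -2.26, SE 0.12). Cholesterol synthesis genes gave 7 rises and no fall of 20 (median 0.78), among them lanosterol synthase (Lss, 62.1 and 69 CPM, then 256 and 231 CPM).

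Of 18 targets of p53 7 fell, 1 rose (Gdf15) and 10 did not pass (median log2 fold change -0.48). The cell cycle inhibitor Cdkn1a (p21) fell from 517 and 501 CPM to 76.6 and 69.6 CPM (log2 fold change -2.8, SE 0.14, edgeR adjusted p = 3.9e-19), Phlda3 from 420 and 398 CPM to 49.7 and 35.8 CPM (log2 fold change -3.26, SE 0.15) and Ccng1 from 647 and 681 CPM to 227 and 196 CPM (log2 fold change -1.65, SE 0.12). All 3 were lower in both S5 libraries. The apoptosis genes Bax, Bbc3 and Pmaip1 did not pass. Of 19 mitotic genes 3 rose (Mki67, Plk1 and Bub1, log2 fold changes 1.23, 1.23 and 1.22) and none fell (median 0.51). That share of rises is near the 14.1% of all tested genes. In the omission media no mitotic gene passed in either direction.

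Genes of the 2-cell-like state, a rare condition of cultured stem cells that resembles the 2-cell embryo, rose in 18 of 23 tested with none fallen and a median log2 fold change of 3.13. Zscan4c went from 4.29 and 4.6 CPM to 32.7 and 30.8 CPM (log2 fold change 2.83, SE 0.16, edgeR adjusted p = 6e-17) and Zscan4d from 2.46 and 2.37 CPM to 22.3 and 19.8 CPM (log2 fold change 3.13, SE 0.19). The Zscan4 and Usp17l genes are near-identical copies, so the split of counts among them is uncertain. The summed level of the list was 74 and 74.9 CPM in S3 and 280 and 273 CPM in S5. Zfp352, a single gene of the same state, rose from 0.533 and 0.313 CPM to 3.8 and 4.15 CPM (log2 fold change 3.23, SE 0.31). The mean of Zscan4c was 33.2 CPM at S2 and 31.3 CPM at S3 without Birabresib, close to its level at S5, and 91.7 CPM in EPSCs kept for 25 passages in a totipotency medium. Of 14 oocyte genes 3 rose and none fell, all from under 1 CPM, and the count of rises was 1 without S3 library 1.

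The genes with the largest fitted changes among those with at least 10 CPM in S3 or S5 repeat these groups and add others. Of the 12 largest rises Afp, Apoa1, Ttr, Apob and Soat2 are visceral endoderm products and Cer1 an anterior one. The remaining ones were Pga5, a pepsinogen (0.0464 and 0.313 CPM, then 322 and 399 CPM, log2 fold change 10.93, SE 0.33, edgeR adjusted p = 2.5e-25), Irs4, an insulin receptor substrate (0.139 and 0.313 CPM, then 205 and 329 CPM, log2 fold change 10.18, SE 0.38), the mucin Muc13 (0.0464 and 0.0893 CPM, then 53.3 and 88.5 CPM, log2 fold change 9.96, SE 0.48), the trypsin inhibitor Spink1 and the serine protease Habp2, both without a count in S3 and at least 529-fold and 397-fold higher in S5, and Fgf15. The rank of genes with few or no counts in S3 rests on fitted values that depend on a prior count, and the bounds of Spink1 and Habp2 lie below the fold of Fgf5 (log2 fold change 9.22), which is not among the 12. Among the 12 largest falls Sp5, Cdx1 and Notum are Wnt targets and Stra8 a retinoic acid target. Tlx2, a homeobox gene (chr6:83068324-83070293, minus strand), fell from 78.1 and 67.2 CPM to 0.0442 and 0.137 CPM (log2 fold change -9.61, SE 0.4, edgeR adjusted p = 1.2e-20). Csf3r, the receptor of granulocyte colony-stimulating factor, stood at 19.1 and 17.3 CPM in S3 and at 0.0442 and 0 CPM in S5. The ratio of S3 over S5 was 809, with a 95% counting interval from 224 to 6690. The mean of Csf3r at S3 was 0.225 CPM without CHIR-99021, 0.393 CPM without 8Br-cAMP, 4.21 CPM without CD1530 and 40.4 CPM without Birabresib. Its omission libraries overlapped between the stages, and the differences between media were not tested. Cyp1a1, a xenobiotic enzyme, fell from 88.8 and 82.7 CPM to 2.17 and 1.6 CPM (log2 fold change -5.51, SE 0.3). The other falls were the homocysteine methyltransferase Bhmt, the RNA-binding protein Rbm24, the fatty acid receptor Ffar3, the transporter Slc6a7 and the antisense RNA Hoxb5os. Hoxb5os shares 14.4% of its exonic bases with other genes, and its counts are uncertain, since no label says whether counting used strand.

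The omission media gave other libraries for the interval from S3 to S5, 8 of S5 against 8 of S3, in the same fit. The agents left out differed between the stages, so each side of the omission comparison averages unlike media. Of the 3535 genes that rose in the complete media 2662 (75.3%) also rose there, which is 60.1% of the 4430 rises in those media, and 1 gene fell. Of the 2129 that fell 1145 (53.8%) also fell, which is 65.4% of 1752, and 2 rose. Among all tested genes 17.7% rose and 6.99% fell in the omission media. The direction was shared by 98.2% of the risen and 96.1% of the fallen genes, a share not counted over all tested genes. Visceral endoderm products rose in 18 of 22 cases there (median log2 fold change 3.79), glycolysis genes in 18 of 22 (2.02), formative genes in 15 of 20 (2.14) and 2-cell-like genes in 20 of 23 (2.88), and Wnt targets fell in 11 of 18 (-2.02). Runx1, which rose in the complete media, did not pass in the omission media (log2 fold change 0.62), and the difference itself was not tested. Cubn overlapped between the stages, since S3 without CHIR-99021 averaged 222 CPM and S5 without FGF4 averaged 210 CPM. The libraries of S5 without XAV 939 differed most from each other, with an SD of the log2 difference of 0.393 against 0.289 in S5 and 0.209 in S3.

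**Figure D4:**
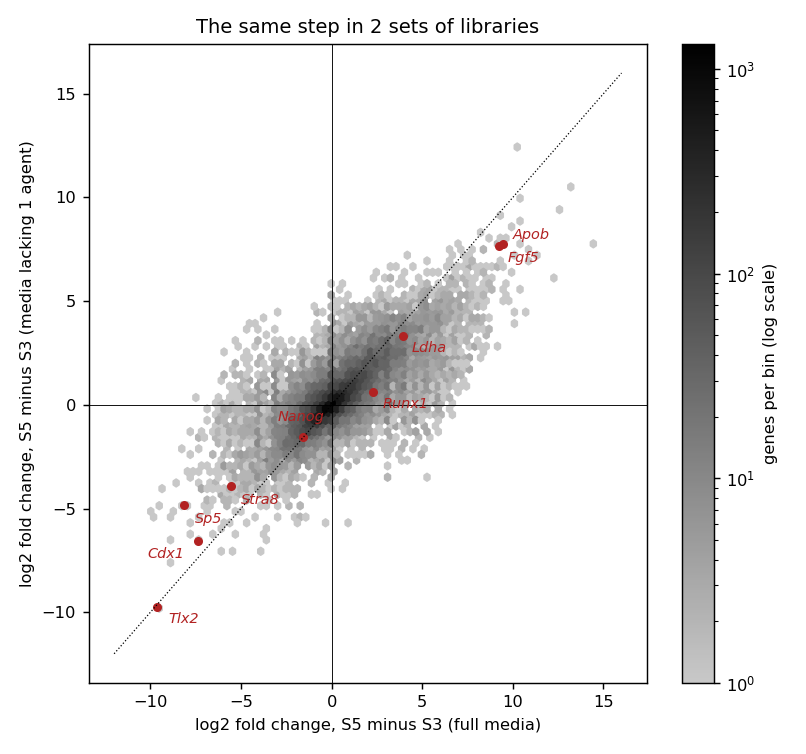
Log2 fold change of S5 minus S3 in the complete media (x axis) and in the omission media (y axis) for all 25056 tested genes, as hexagons shaded by the number of genes, with the identity line dotted and 9 genes named in red. Tlx2, Cdx1, Nanog and Ldha lie near the line, Runx1 lies below it, and genes without a count in a group have fitted values that depend on a prior count.

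Levels at S5 were set beside those of earlier samples of the series. Ldha averaged 1920 CPM in EPSCs kept for 25 passages in a totipotency medium (stage S1) and 146 CPM at S2, below its level at S5. Slc16a3 averaged 518 CPM and 8.92 CPM in the same groups. Tdgf1 averaged 544 CPM at 25 passages and 26.9 CPM at S2, Fgf4 99.3 and 22.2 CPM, Lin28a 184 and 86.1 CPM and Utf1 149 and 28.9 CPM. For these genes the level at S5 was close to or above that of the passaged cells, and S2 and S3 were lower. Of the visceral endoderm genes Hnf4a averaged 2.3 CPM at 25 passages and 0.831 CPM at S2, and Lhx1 0.191 and 0.403 CPM. Cdx1, Axin2 and Stra8 were already high at S2, with means of 546, 320 and 467 CPM. Counts from 1 to 10 were even in 66.8 to 73.6% of cases in the 20 libraries of S3 and S5 and in 40.7 to 42% in the EPSC and passaged-cell libraries, so the counting may differ between them, and no test was made across these groups.

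**Figure D5:**
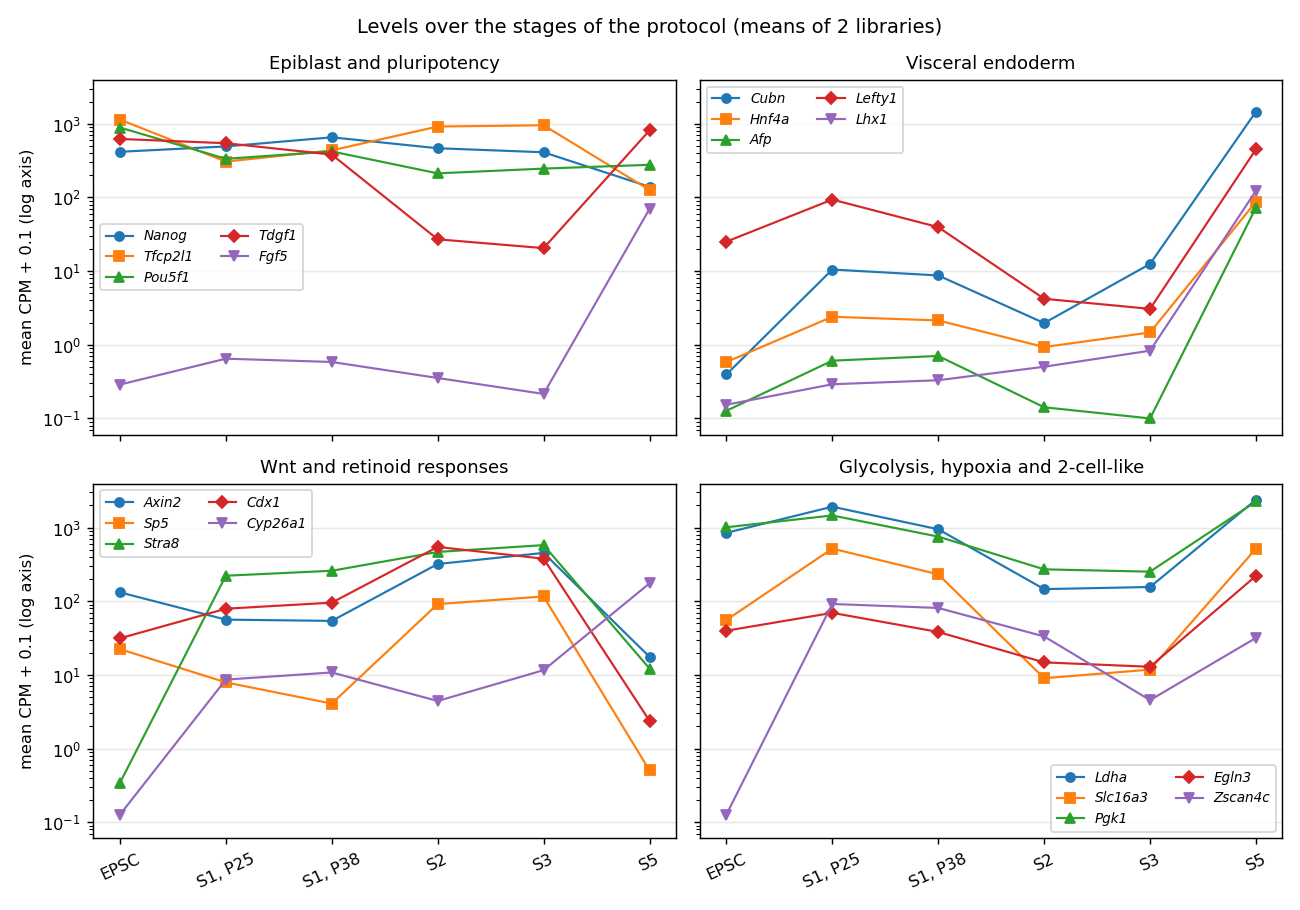
Mean CPM + 0.1 of 2 libraries on a log axis for EPSCs, cells of 25 and 38 passages in S1 medium, S2, S3 and S5, in 4 panels of 5 genes, with lines that only guide the eye. Glycolysis genes and Tdgf1 dip at S2 and S3, visceral endoderm genes rise at S5, and Axin2, Sp5, Stra8 and Cdx1 peak at S2 and S3.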

How the data were processed

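Poly(A) RNA of mouse cells and aggregates was sequenced as paired reads. The authors deposited 1 table of raw read counts per gene for 52 libraries, in whole numbers. Per the submitters' processing notes, reads were handled with Trimmomatic 0.39, STAR 2.7.10b and featureCounts 2.0.6 on mm10; for annotation, strand and pair counting no setting was found (not given in the sources used here). Counts from 1 to 10 were even in 66.8 to 73.6% of cases in the 20 S3 and S5 libraries, so mates seem to have been counted separately, and intervals and floors, which cover counting error only, understate the error.

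Counts were filtered (filterByExpr), TMM-scaled and fitted with edgeR 4.0.16 in R 4.3.3, 1 mean per group over all 52 libraries in 26 groups, and tested by quasi-likelihood F tests with Benjamini-Hochberg adjustment over 25056 genes. SE is the log2 fold change divided by the root of F. Library totals were 34.8 to 57.9 M in the 20 S3 and S5 libraries. On simulated counts, 80 of 100 genes changed 2-fold and 100 of 100 changed 4-fold passed the adjusted p, and 47 of the former also passed the fold threshold. Genes named are the 12 largest rises and 12 largest falls with at least 10 CPM in S3 or S5, predicted genes left out, members of the lists, and a fixed set of markers. The members and lists were chosen with earlier results of these data known. Promoter windows and coordinates came from RefSeq (GRCm38.p6) and GENCODE M21, which matched 53292 of 55291 symbols. Alternatives were no filter, DESeq2 1.42.0 and its size factors, halved counts, fewer libraries, the replicate block and leaving out each library. Some members of the lists are counted but not reported here by name.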

Additional observations from a re-analysis of the deposited data

How the results depend on the processing

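The number of changed genes lay between 4873 and 5688 over 12 alternatives (main value 5664) and between 5371 and 6508 in the omission media (6182), and no called gene named here changed direction. Leaving out each of the 4 libraries gave 4873 to 5327 changed genes. With the replicate block the counts were 5447 and 5737. Deviations of S3 and S5 libraries with the same number correlated at -0.052. With 2 libraries a group, this value cannot settle whether equal numbers mark paired samples. DESeq2 size factors moved the median of all genes to 0.045, a shift under 0.1. Genes that did not pass and changed sign, all with log2 fold changes near 0 or under 0.14 CPM, were, over the leave-one-out fits, Sox17 (-0.02 to 0.32), Apoe (-0.27 to 0.32), Bmpr1a (-0.01 to 0.03), Id1 (-0.18 to 0.35), Plat (-0.14 to 0.02) and Fxyd3 (-0.62 to 4.97). Why these moved was not tested. Esx1 missed the fold threshold (-0.99) and Pdgfra passed it (1.01) with DESeq2 size factors, with 20 libraries and with the block. With 2 libraries a group, small changes and genes of a few counts are limited by the number of libraries.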

Other observations

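Some gene families outside the lists were counted after their values were seen, against 14.1% risen and 8.5% fallen among all tested genes. Of 38 Hox genes 28 fell (73.7%) and 2 rose (Hoxa11 and Hoxb13), with a median log2 fold change of -2.3, and all 3 Cdx genes fell (median -3.99). Of 69 histone genes 34 rose (49.3%) and 2 fell (H2ax and H2bc21), with a median of 2.09. Of the 13 mitochondrial messenger RNAs 6 rose (46.2%) and none fell (median 1.08). Of 79 ribosomal protein genes 12 rose (15.2%, near the share of all tested genes) and none fell (median 0.44). Solute carriers gave 85 rises (25.6%) and 39 falls (11.7%) of 332 genes. Histone messages mostly lack a poly(A) tail, and the part of RNA selection in their counts was not tested.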
